A study of Mus musculus with 6 samples.

Results

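The 58 mitosis and kinetochore genes described here encode the machinery that carries a cell from the G2 phase through chromosome segregation to the separation of the daughter cells. They were selected by gene symbol from a table of 16880 mouse genes, with the values of this same contrast already known, and the list states no threshold. Their lower level with the inhibitor is therefore part of how they were chosen and is given as a description. Of the 58 symbols, 57 were found as written and 1, Sgol1, is listed under its current symbol Sgo1. All 58 passed the filter on low counts that left 11983 genes to test, so no member was set aside.

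RNA was sequenced from cells that the labels name as ATDC5, a mouse chondrogenic cell line derived from a teratocarcinoma, whereas the methods of the study speak of chondrocytes. Both groups received the inflammatory cytokine IL-1β at 10 ng/mL, and 1 of them also received 10 μM NP-G2-044, a small molecule inhibitor of the actin-bundling protein FSCN1 (fascin), for 24 h according to the methods. Each group has 3 libraries, 6 in all, all of 1 cell line with no stated genetic change. The sample titles give NP-G2-044 and the treatment label of the same samples gives NP-G2-047. The methods speak of biological replicates, and the labels do not say that the libraries came from separate cultures, so the errors below measure the spread between these libraries, which may be technical. The methods name a DMSO group as well, which was not analysed here, and no value here says what IL-1β itself did.

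The genes of this set follow the division cycle. Cyclin A and cyclin B bind the kinase CDK1, the active kinase starts mitosis, kinetochores assembled on centromeric chromatin catch spindle microtubules, and the spindle checkpoint holds back the anaphase-promoting complex until every chromosome is attached. Most of these genes are transcribed in a peak in G2 and mitosis, and in the textbook scheme their promoters carry CCAAT boxes, bound by NF-Y, and a cell cycle homology region (CHR), bound by the MuvB core of the DREAM, B-MYB and FOXM1 complexes. Such genes are low in resting cells and high in dividing cells. In RNA from a whole culture, fewer cells in G2 and mitosis and less of each RNA per dividing cell cannot be told apart.

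The promoters of 6 members show these letters. They are printed because Ccnb2, Cdk1, Cdc20, Plk1 and Top2a carry both motifs and because Ccnb1, whose product has the same partner as that of Ccnb2, carries CCAAT without the CHR letters searched for. The sequences are those of RefSeq on GRCm38.p6, the build that mm10 names, run 5′ to 3′ on the strand of the gene from position -250 to position 50 around the start site, and have CCAAT (or its reverse complement ATTGG) and the CHR letters TTTGAA (or TTCAAA) and TTCGAA in capitals. The windows are chr9:70421505-70421804 (minus strand), chr10:69352863-69353162 (minus strand), chr4:118437294-118437593 (minus strand), chr7:122159185-122159484 (plus strand), chr11:99024140-99024439 (minus strand) and chr13:100786437-100786736 (minus strand).
Ccnb2: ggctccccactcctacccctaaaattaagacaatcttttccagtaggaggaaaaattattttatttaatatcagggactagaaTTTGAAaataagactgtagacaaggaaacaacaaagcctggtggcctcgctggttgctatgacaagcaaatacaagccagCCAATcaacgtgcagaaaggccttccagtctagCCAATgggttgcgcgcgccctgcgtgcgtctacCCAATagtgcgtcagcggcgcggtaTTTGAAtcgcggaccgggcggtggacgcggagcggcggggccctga
Cdk1: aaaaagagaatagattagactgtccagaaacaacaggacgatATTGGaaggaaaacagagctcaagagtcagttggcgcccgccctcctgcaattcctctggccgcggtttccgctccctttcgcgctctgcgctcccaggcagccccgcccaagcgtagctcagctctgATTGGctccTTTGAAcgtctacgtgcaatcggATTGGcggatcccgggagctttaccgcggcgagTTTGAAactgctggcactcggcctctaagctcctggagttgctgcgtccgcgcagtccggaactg
Cdc20: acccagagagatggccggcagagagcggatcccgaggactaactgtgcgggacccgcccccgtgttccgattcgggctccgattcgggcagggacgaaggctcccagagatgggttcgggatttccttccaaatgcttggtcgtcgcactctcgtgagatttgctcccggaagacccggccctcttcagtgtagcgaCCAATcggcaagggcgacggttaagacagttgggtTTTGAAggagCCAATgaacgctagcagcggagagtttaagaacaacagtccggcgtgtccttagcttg
Plk1: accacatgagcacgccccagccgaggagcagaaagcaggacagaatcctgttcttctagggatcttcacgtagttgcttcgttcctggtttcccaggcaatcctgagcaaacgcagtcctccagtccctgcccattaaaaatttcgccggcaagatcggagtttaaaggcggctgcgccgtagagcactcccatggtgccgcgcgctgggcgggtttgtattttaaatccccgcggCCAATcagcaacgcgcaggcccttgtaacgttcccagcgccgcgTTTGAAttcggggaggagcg
Top2a: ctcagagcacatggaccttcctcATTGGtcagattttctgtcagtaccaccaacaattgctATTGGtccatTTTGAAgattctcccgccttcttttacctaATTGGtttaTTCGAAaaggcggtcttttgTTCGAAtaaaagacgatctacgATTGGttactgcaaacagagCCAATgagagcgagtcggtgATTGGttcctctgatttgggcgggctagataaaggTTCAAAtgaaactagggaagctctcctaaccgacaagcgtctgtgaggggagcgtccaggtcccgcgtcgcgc
Ccnb1: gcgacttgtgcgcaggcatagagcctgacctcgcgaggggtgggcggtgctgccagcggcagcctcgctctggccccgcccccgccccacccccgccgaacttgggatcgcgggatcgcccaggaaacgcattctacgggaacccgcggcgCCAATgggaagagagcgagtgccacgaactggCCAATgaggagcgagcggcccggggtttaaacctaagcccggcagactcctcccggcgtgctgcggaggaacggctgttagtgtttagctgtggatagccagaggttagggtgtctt
With distances taken to the middle of a match, Ccnb2 had CCAAT at -85, -52 and -19 and CHR letters at -164 and 7. Cdk1 had CHR letters at -68 and -12, Cdc20 at -15 and Plk1 at 33. Top2a had 6 matches of CCAAT and 4 of the CHR letters. Ccnb1 had CCAAT at -97 and -65, and the CHR letters searched for are not in its window. Other spellings of a CHR were not searched for, so Ccnb1 is not shown to lack a CHR.

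Among the 58 members, 48 matched a promoter of the RefSeq table, with 53 windows because some genes have several start sites. Ccna2, Cdc25c, Foxm1, Aurkb, Incenp, Spc24, Kif20a, Tpx2, Dlgap5 and Smc4 had no entry. The CHR letters, searched on both strands, stood in 35 of the 48 matched members (72.9%), against 21.7% of all 27025 genes with a promoter and 16.4% of the 9635 tested genes with one. TTTGAA alone was found in 32 members (66.7%), against 14.2% of the tested genes. CCAAT on either strand stood in 36 members (75%), against 44.2% of the tested genes, and in 24 members (50%) at least 2 copies did, against 17.2%. Both motifs were held by 31 members (64.6%), against 7.13% of the tested genes.

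The letters also had a preferred place in the members. In the 50 bases after the start site the members had 45.3 CHR matches per 100 windows and the tested genes 1.84, and in the 50 bases before it 20.8 and 1.93. CCAAT was densest just upstream, with 52.8 matches per 100 member windows between -50 and 0 and 50.9 between -100 and -50, against 12.6 and 17.2 among the tested genes. Among gene lists written for comparison, other genes of G2, mitosis and the spindle had CHR letters in 21 of 31 promoters (67.7%), other kinetochore genes in 12 of 25 (48%), S phase genes in 7 of 31 (22.6%), the anaphase-promoting complex and its cofactors in 3 of 15 (20%), cohesin genes in 3 of 8 (37.5%), condensin II subunits in 3 of 3, subunits of the DREAM, MuvB, RB and NF-Y complexes in 4 of 11 (36.4%) and brakes on CDK1 in 0 of 10. CCAAT was nearly as frequent in S phase genes (64.5%) as in other genes of G2 and mitosis (67.7%). These are counts of letters in reference sequence and were not tested, and a match is not a bound site.

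**Figure D1:**
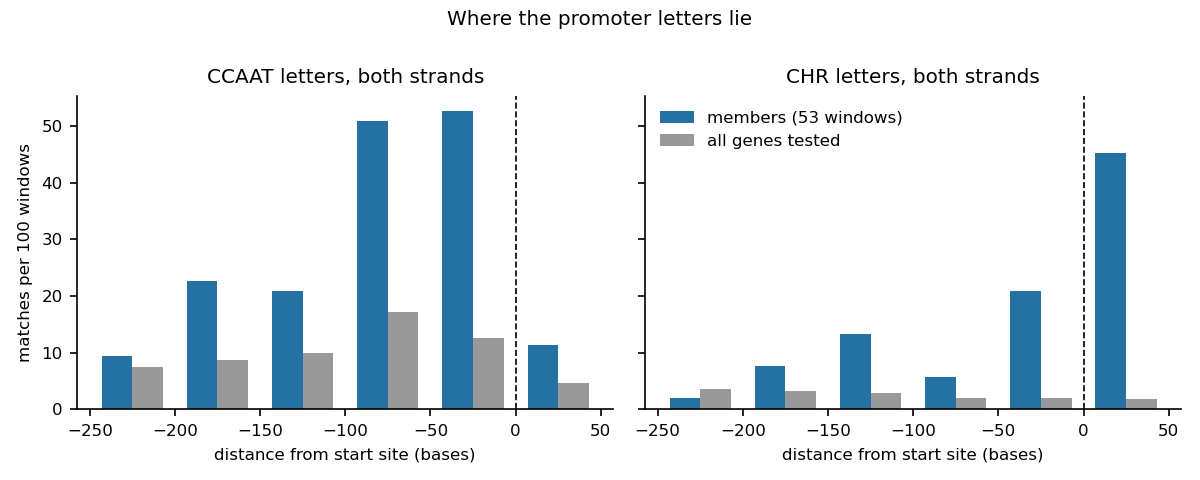
Matches of CCAAT (left) and of the CHR letters (right) per 100 promoter windows in bins of 50 bases, plotted against the distance from the start site in bases, for the 53 windows of members (blue) and the windows of all tested genes (grey). Members peak at 45.3 CHR matches per 100 windows just after the start site, where tested genes have 1.84, and their CCAAT matches gather in the 100 bases before it.

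All 58 members were lower with NP-G2-044. In estimated reads they took 1.046%, 1.059% and 1.067% of the 3 IL-1β libraries and 0.4059%, 0.3971% and 0.3947% of the 3 NP-G2-044 libraries. Their summed level was 6711, 6775 and 6740 in TPM (a level corrected for transcript length and library size) against 2655, 2576 and 2551. Neither group overlapped the other in these sums, and within a group the libraries lay close together.

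Per member, the log2 fold change of NP-G2-044 over IL-1β had a median of -1.44, which is 36.9% of the IL-1β level, and ran from -2.25 in Mki67 to -0.37 in Bub3. Over all 11983 tested genes the median was 0.00 and the quartiles were -0.43 and 0.36. All 58 were called lower at an adjusted p below 0.05 (quasi-likelihood F-test of edgeR, Benjamini-Hochberg over all tested genes), where 39.8% of the tested genes were called lower and 40.2% higher. With a log2 fold change above 1 in size as a further condition, 49 of 58 were called lower (84.5%) and 0 higher, where 10.1% of the tested genes were called lower and 6.48% higher. All 3 NP-G2-044 libraries lay below all 3 IL-1β libraries for 58 of 58 members, where this held for 40.1% of the tested genes. Because the members were chosen with this contrast known, these counts describe them and no test is drawn from them.

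The log2 fold change was below -2 for 3 members (Mki67, Kif11 and Kif2c), between -2 and -1.5 for 21, between -1.5 and -1 for 25 and above -1 for 9 (Cdca8, Smc4, Ncapg, Cdc25b, Sgo1, Tpx2, Mybl2, Nek2 and Bub3). Of all tested genes, 738 had a lower value than the members' median, and 48 members lay in the lowest 10% of tested genes, below -1.01. Standard errors of the members' log2 fold changes ran from 0.0288 to 0.0994, no member had fewer than 104 reads in any library, and the coefficient of variation of TPM within a group had a median of 2.77% with IL-1β and 3.95% with NP-G2-044. Spearman's rho of the mean TPM with IL-1β and the log2 fold change was -0.07 over the 58 genes, which share the same 6 libraries.

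**Figure D2:**
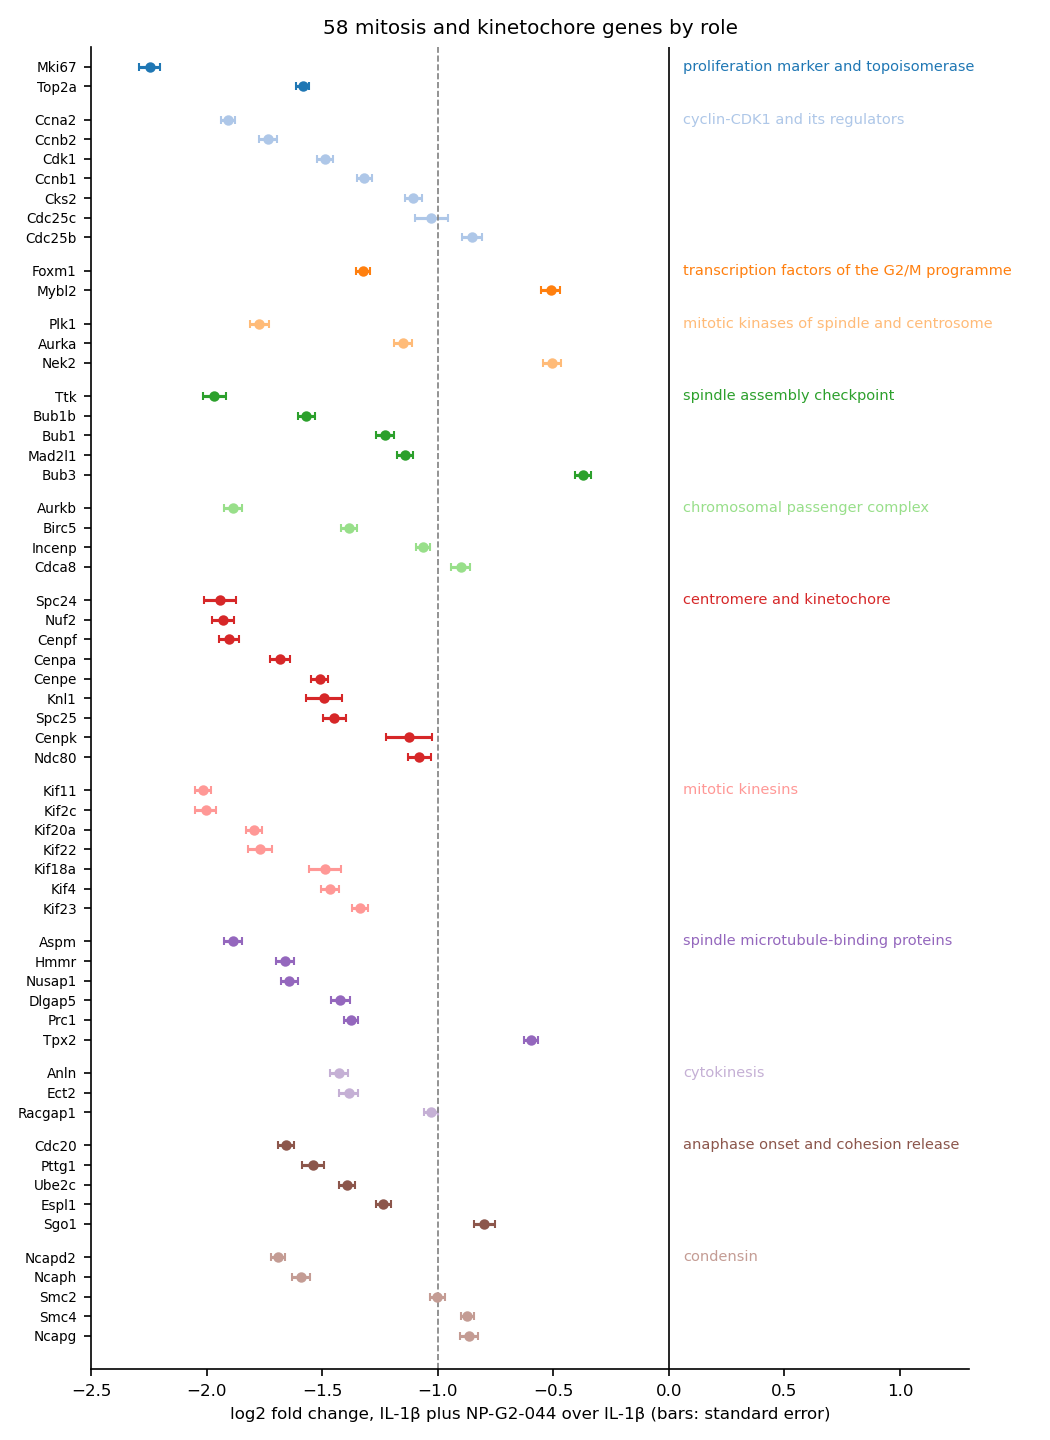
Log2 fold change in the NP-G2-044 group over the IL-1β group (horizontal axis) for each of the 58 members, grouped and coloured by role, with bars of 1 standard error and a dashed line at -1. Every point lies left of 0, the kinesins and kinetochore genes lie wholly left of -1, and Bub3, Nek2, Mybl2 and Tpx2 lie nearest to 0.

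Regulators of mitotic entry came first in the order of the cycle. Cdk1 (Entrez gene 12534), the kinase that starts mitosis, was at 76.3, 78.4 and 74.3 TPM with IL-1β and at 27.3, 25.7 and 26.7 TPM with NP-G2-044 (log2 fold change -1.49, standard error 0.0348). Its partner cyclin A2, encoded by Ccna2 (Entrez gene 12428), was at 170, 171 and 177 TPM against 44.7, 45.2 and 45.1 TPM (log2 fold change -1.91, standard error 0.0316). Ccnb2 (Entrez gene 12442), the cyclin B gene with both promoter motifs above, was at 219, 211 and 211 TPM against 61.1, 64.4 and 62.9 TPM (log2 fold change -1.74, standard error 0.0377). Ccnb1 (Entrez gene 268697), the main mitotic cyclin and the one whose window lacks the CHR letters searched for, was at 173, 169 and 175 TPM against 67.7, 67.4 and 67.1 TPM (log2 fold change -1.32, standard error 0.0325). The groups did not overlap for any of these genes, and the 3 NP-G2-044 libraries of Ccna2 and of Ccnb1 were nearly equal. Reads of Ccnb1 could be shared with 4 pseudogenes, of which Ccnb1-ps matches it over 1287 bases at 99.22% identity, and exons of Ccna2 overlap those of Exosc9 on the opposite strand by 510 bases.

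The phosphatases that remove the inhibitory phosphates from CDK1 had log2 fold changes nearer to 0 than those of the cyclins. Cdc25b, the smallest change of this group, was at 44.6, 43.0 and 42.3 TPM against 24.03, 23.6 and 22.7 TPM (log2 fold change -0.85, standard error 0.0438), and Cdc25c had -1.03 (standard error 0.0732). Cks2, a small subunit that binds CDK1, was the most abundant member at 518 to 539 TPM with IL-1β and had a log2 fold change of -1.11. It shares 240 bases with each of 3 pseudogenes. Over these 7 genes the median was -1.32, and 6 of 7 passed both cutoffs, of which Cdc25c fell short with limma on log2(TPM + 1) and when the first NP-G2-044 library was left out.

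Transcription factors of the G2 and mitosis programme differed from each other. Foxm1 (Entrez gene 14235) was at 112, 116 and 117 TPM with IL-1β and at 46.4, 44.8 and 43.7 TPM with NP-G2-044 (log2 fold change -1.32, standard error 0.0307). Mybl2 (Entrez gene 17865), which encodes B-MYB, was at 37.2, 36.7 and 36.7 TPM against 24.6, 26.6 and 25.2 TPM (log2 fold change -0.51, standard error 0.0416). B-MYB is itself made from late G1 on, earlier than most members. A pseudogene matches Mybl2 over 742 bases at 99.73% identity, and exons of Foxm1 overlap those of Tex52 on the same strand by 144 bases.

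General markers of dividing cells had the largest change and one near the median. Mki67 (Entrez gene 17345), which encodes the chromosome coat protein Ki-67, was at 101, 109 and 116 TPM with IL-1β and at 23.7, 22.2 and 21.3 TPM with NP-G2-044 (log2 fold change -2.25, standard error 0.0459), so that 21% of the level was left. Top2a (Entrez gene 21973), the topoisomerase that untangles sister chromatids, was at 297, 318 and 315 TPM against 105, 103 and 95.2 TPM (log2 fold change -1.59, standard error 0.0298). In both genes the first IL-1β library was the lowest of its group and the first NP-G2-044 library the highest of its group. Over all members the first IL-1β library was the lowest of its group for 33 genes and the first NP-G2-044 library the highest of its group for 37, and the sums above show how small these offsets were.

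**Figure D3:**
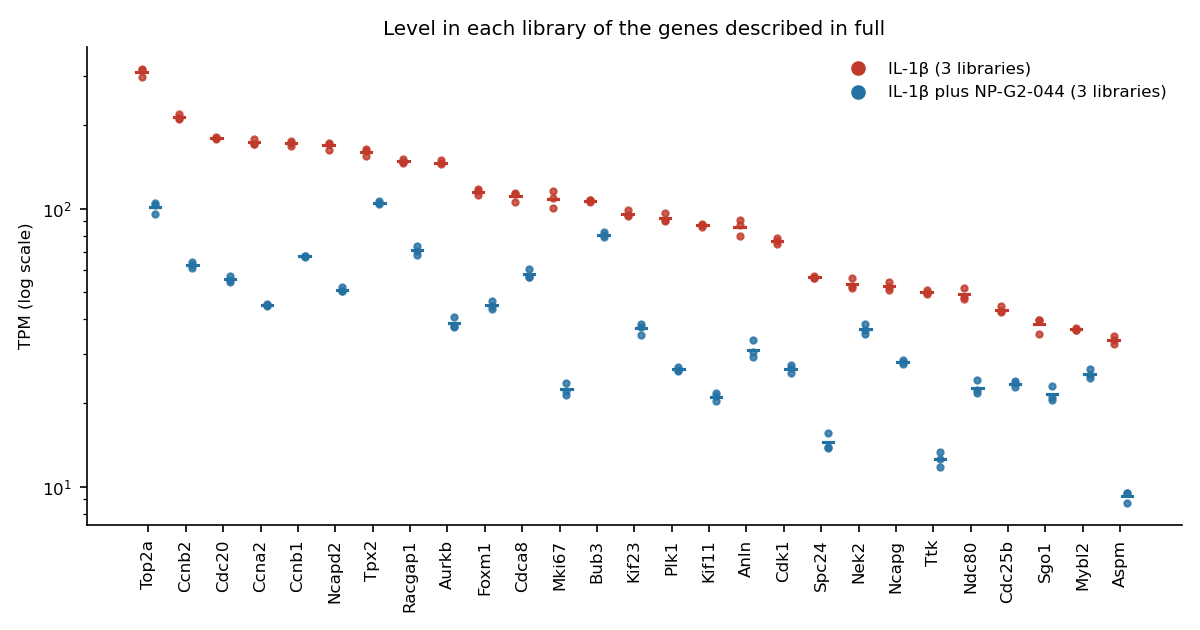
Level in TPM (vertical axis, log scale) in each library of the 27 members whose values are given per library, ordered by their mean with IL-1β, with points for the 3 IL-1β (red) and 3 IL-1β plus NP-G2-044 libraries (blue) and short lines at the group means. For every member drawn the blue points lie below the red ones, with the narrowest gap in Bub3 and the widest in Mki67.

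Genes of the centromere and kinetochore all passed both cutoffs (9 of 9, median -1.51). Spc24 was at 56.2, 57.1 and 56.5 TPM with IL-1β and at 13.8, 13.9 and 15.6 TPM with NP-G2-044 (log2 fold change -1.94, standard error 0.0693), the largest of the group. Ndc80, which gives its name to the complex in which Spc24, Spc25 and Nuf2 also sit and which holds microtubule ends, was at 47.5, 51.8 and 48.0 TPM against 22.3, 24.2 and 21.7 TPM (log2 fold change -1.08, standard error 0.0507), the smallest of the group. Nuf2 had -1.93 and Spc25 -1.45, so the 4 subunits of 1 complex spanned the whole range of the group. Outside that complex, Cenpa, the histone H3 variant that marks centromeres, had -1.68, Cenpf -1.91, the kinetochore motor Cenpe -1.51, the checkpoint scaffold Knl1 -1.49 and Cenpk, of the inner kinetochore, -1.12. Cenpk was the noisiest member, at 9.84, 9.56 and 12.9 TPM with NP-G2-044, a coefficient of variation of 17.2%.

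The chromosomal passenger complex corrects faulty attachments of microtubules to kinetochores. Aurkb, its kinase, was at 149, 144 and 146 TPM with IL-1β and at 40.7, 37.7 and 37.4 TPM with NP-G2-044 (log2 fold change -1.89, standard error 0.0393). Cdca8, which encodes borealin, was at 113, 114 and 106 TPM against 60.6, 56.9 and 56.6 TPM (log2 fold change -0.90, standard error 0.0418). Birc5 (survivin) had -1.39 and Incenp, the scaffold, -1.07.

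The spindle assembly checkpoint held both a gene near the lower end and the gene nearest to no change. Ttk, the kinase that starts checkpoint signalling, was at 50.9, 49.1 and 49.8 TPM against 13.3, 11.8 and 12.6 TPM (log2 fold change -1.97, standard error 0.0495). Bub3, a partner of the proteins of Bub1 and Bub1b, was at 106, 108 and 107 TPM against 82.1, 79.3 and 80.5 TPM (log2 fold change -0.37, standard error 0.0343), or 77.2% of its level with IL-1β, and the groups still did not overlap. Bub1b had -1.57, Bub1 -1.23 and Mad2l1, whose product binds CDC20, -1.14. Of these 5 genes, 4 passed both cutoffs.

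Motors and other proteins of the spindle were among the lowest. The 7 mitotic kinesins had a median of -1.77 and all passed both cutoffs. Kif11, the motor that pushes the spindle poles apart, was at 86.2, 87.3 and 87.9 TPM with IL-1β and at 21.7, 21.1 and 20.4 TPM with NP-G2-044 (log2 fold change -2.02, standard error 0.0337). Kif23, a motor of the midzone, was at 93.9, 98.9 and 95.1 TPM against 35.1, 38.5 and 37.6 TPM (log2 fold change -1.34, standard error 0.0358). Between them lay Kif2c, a microtubule depolymerase at centromeres, with -2.01, Kif20a with -1.80, Kif22 with -1.77, Kif18a with -1.49 and Kif4 with -1.47. Exons of Kif20a overlap those of Cdc23 on the opposite strand by 1271 bases and exons of Kif4 overlap Pdzd11 by 832, and the sources used here do not say whether counting used strand.

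Aspm, which works at the spindle poles, was at 32.6, 33.7 and 34.8 TPM against 9.48, 9.50 and 8.71 TPM (log2 fold change -1.89, standard error 0.0400). Tpx2, which nucleates spindle microtubules and activates the kinase of Aurka, was at 154, 161 and 163 TPM against 104, 105 and 106 TPM (log2 fold change -0.60, standard error 0.0288). Hmmr with -1.66, Nusap1 with -1.64, Dlgap5 with -1.42 and the midzone bundler Prc1 with -1.38 filled the space between. Tpx2 was thus the only 1 of the 6 microtubule-binding proteins short of the cutoff on the fold change. Of the mitotic kinases, Plk1 was at 90.8, 96.1 and 89.9 TPM against 27.0, 26.1 and 26.2 TPM (log2 fold change -1.77, standard error 0.0426). Nek2, a kinase of centrosome separation, was at 52.7, 51.6 and 56.1 TPM against 38.5, 35.4 and 36.5 TPM (log2 fold change -0.51, standard error 0.0396). Aurka, at -1.15, lay between them.

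Genes of anaphase had a median of -1.39. Cdc20, the activator of the anaphase-promoting complex that the checkpoint restrains, was at 181, 179 and 178 TPM with IL-1β and at 57.2, 55.5 and 54.4 TPM with NP-G2-044 (log2 fold change -1.66, standard error 0.0362). Sgo1, which shields centromeric cohesin, was at 35.5, 39.9 and 39.8 TPM against 23.1, 20.5 and 21.1 TPM (log2 fold change -0.80, standard error 0.0455). Securin, encoded by Pttg1, had -1.54 and separase, the protease it restrains and the product of Espl1, had -1.24. Ube2c, which loads ubiquitin for the complex, had -1.39 and was one of the most abundant members at 502 to 517 TPM with IL-1β.

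Condensin, which compacts mitotic chromosomes, had the smallest median of the complexes, -1.003. Ncapd2 was at 163, 171 and 173 TPM with IL-1β and at 52.2, 50.6 and 50.6 TPM with NP-G2-044 (log2 fold change -1.69, standard error 0.0297), and Ncaph had -1.59. Ncapg, a subunit of the same complex, was at 52.2, 51.0 and 54.4 TPM against 28.6, 27.6 and 28.0 TPM (log2 fold change -0.87, standard error 0.0386). Its exons overlap those of Lcorl on the opposite strand by 944 bases. The ATPase subunits Smc2 and Smc4, which condensin II also uses, had -1.003 and -0.873. Smc2 lay just past the cutoff and fell short of it when the third IL-1β or the second NP-G2-044 library was left out.

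Cytokinesis closes the cycle. Anln, the actin-binding scaffold of the contractile ring, was at 79.8, 90.9 and 87.6 TPM against 33.6, 30.4 and 29.4 TPM (log2 fold change -1.43, standard error 0.0379). Racgap1, the partner of KIF23 in centralspindlin, was at 146, 147 and 150 TPM against 73.6, 68.2 and 70.3 TPM (log2 fold change -1.03, standard error 0.0313). Ect2, the exchange factor that switches on RhoA at the ring, had -1.39. All 3 genes passed both cutoffs.

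Partners in 1 complex or pathway differed in their proportions between the groups. With TPM of one gene divided by TPM of its partner in each library, Nuf2 over Ndc80 was 1.32 ± 0.0902 (SD, n = 3) with IL-1β and 0.733 ± 0.0676 (SD, n = 3) with NP-G2-044. Spc24 over Ndc80 went from 1.15 ± 0.0454 to 0.638 ± 0.0726 and Ncapd2 over Ncapg from 3.22 ± 0.122 to 1.82 ± 0.0146 (each SD, n = 3). Aurkb over Cdca8 was 1.32 ± 0.0547 with IL-1β and 0.665 ± 0.00564 with NP-G2-044, so Aurkb was above Cdca8 in all 3 libraries of one group and below it in all 3 of the other. The same switch of order held for Nuf2 over Ndc80, Spc24 over Ndc80 and Ncaph over Ncapg. Bub1b over Bub3 went from 0.938 ± 0.0154 to 0.409 ± 0.0278. Smc2 over Smc4 moved least among these, from 0.442 ± 0.0114 to 0.401 ± 0.00672. Ccnb1 over Cdk1 moved the other way, from 2.25 ± 0.101 to 2.54 ± 0.0763, while Ccnb2 over Cdk1 went from 2.80 ± 0.0949 to 2.36 ± 0.136 and Ccna2 over Cdk1 from 2.27 ± 0.109 to 1.69 ± 0.0626. In each of these pairs the 3 libraries of one group did not overlap the 3 of the other. The pairs were picked after their values were seen and carry no test.

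**Figure D4:**
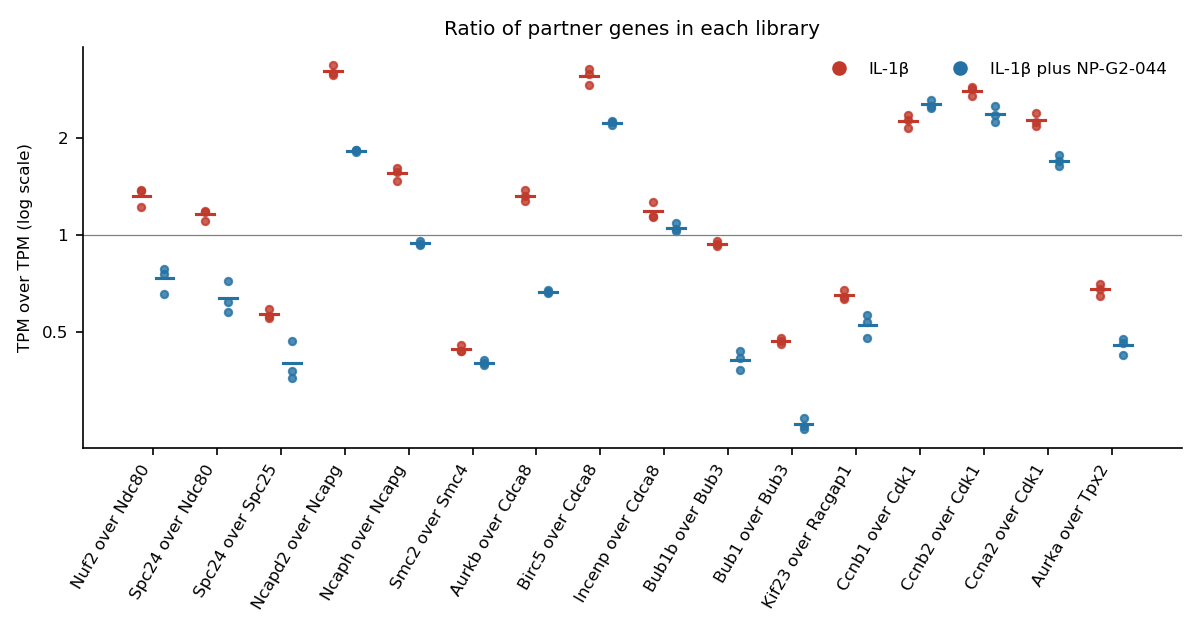
TPM of one gene over TPM of its partner (vertical axis, log scale) in each library for 16 pairs of members, with points for the 3 IL-1β (red) and 3 IL-1β plus NP-G2-044 libraries (blue), short lines at the group means and a grey line at equal levels. The blue points lie below the red for every pair drawn but Ccnb1 over Cdk1. Aurkb over Cdca8, Nuf2 over Ndc80, Spc24 over Ndc80 and Ncaph over Ncapg cross the line of equal levels.

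Members with and without the promoter letters had close medians. The 35 members with CHR letters had a median log2 fold change of -1.47 and the 13 matched members whose windows lack them -1.39. With CCAAT the median was -1.42 over 36 members and without it -1.49 over 12. The 8 members with neither motif in the window had -1.52, and all of these ranges overlapped widely. All members were chosen with this contrast known, and only TTTGAA and TTCGAA were searched for as CHR letters. These medians are therefore a description with no test and do not show whether the letters relate to the change.

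The wider division machinery was read from lists of genes that are not members, chosen with earlier results of these data known. Most genes named from a list are its lowest or highest in this same contrast. Their adjusted p-values, here and in the next paragraphs, are therefore given as a description and no conclusion is drawn from them. Counts of calls are to be read beside all tested genes, of which 39.8% were called lower and 40.2% higher. Past both cutoffs these shares were 10.1% and 6.48%. Of 37 other genes of G2, mitosis and the spindle, 37 were called lower and 27 of these passed both cutoffs, with a median of -1.30. Psrc1, a microtubule-binding protein, was the lowest of them at 14.6, 14.4 and 13.8 TPM against 3.28, 2.97 and 2.55 TPM, with a log2 fold change of -2.25, a standard error of 0.118 and an adjusted p = 8.04e-24 (quasi-likelihood F-test of edgeR, Benjamini-Hochberg over all tested genes, as for the other genes that are not members). Haus1, a subunit of augmin, was the nearest to 0 at -0.18 (adjusted p = 0.0269) and lost its call when the second IL-1β, the first NP-G2-044 or the third NP-G2-044 library was left out (adjusted p of 0.205, 0.0948 and 0.0629). Of 29 other centromere and kinetochore genes, 27 were called lower and 8 of those passed both cutoffs, and the median of -0.71 is nearer to 0 than that of the kinetochore members. This list ran from Cenpm with -1.504 (adjusted p = 1.33e-21) to Dsn1 with 0.02 (adjusted p = 0.752), and Cenpo, with -0.01 (adjusted p = 0.936), was the other gene not called.

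Complexes with roles in mitosis whose genes are not members were read in the same way, beside 39.8% of all tested genes called lower and 40.2% higher (10.1% and 6.48% past both cutoffs). Of 16 genes of the anaphase-promoting complex and its cofactors, 9 were called lower and 3 higher, with a median of -0.16. Anapc13 was the lowest with -1.14 (adjusted p = 6.35e-20) and Anapc16 the highest with 0.46 (adjusted p = 8.29e-16). Of 13 genes of cohesin, which ties sister chromatids together, 8 were called lower and 3 higher, with a median of -0.33. Here the acetyltransferase Esco2, which acts in S phase, had -1.90 (adjusted p = 8.78e-30) and its relative Esco1 0.59 (adjusted p = 1.75e-10). The 3 subunits particular to condensin II were all called lower, with a median of -0.93, from Ncapg2 with -1.06 (adjusted p = 9.6e-24) to Ncaph2 with -0.70 (adjusted p = 1.24e-26). Of 15 subunits of the DREAM, MuvB, RB and NF-Y complexes, 8 were called lower and 4 higher, and 0 passed both cutoffs. Their median was -0.13, with a range from Rbl2 with -0.99 (adjusted p = 5.24e-26) to Lin52 with 0.39 (adjusted p = 0.000125). Rbl2 lay just short of the cutoff on the fold change and passed it with limma on log2(TPM + 0.1), with at least 10 CPM in 3 libraries and when the second IL-1β, the first NP-G2-044 or the third NP-G2-044 library was left out (-1.01 at the lowest with a library left out).

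DNA replication genes were mostly lower too, with a median nearer to 0 than that of the members. Of 38 S phase genes, 31 were called lower, 7 of them past both cutoffs, and 5 higher, with a median of -0.53. The shares over all tested genes were 39.8% lower, 10.1% lower past both cutoffs and 40.2% higher. Rrm2, the ribonucleotide reductase subunit made in S phase, was the lowest with -1.55 (adjusted p = 8.45e-35). Cdt1, which licenses origins in G1, went against the list at 124, 119 and 118 TPM with IL-1β and 271, 277 and 270 TPM with NP-G2-044, a log2 fold change of 1.21 (adjusted p = 5.18e-38). The 2 groups did not overlap for Cdt1.

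Brakes on CDK1 and genes of G2 arrest went in both directions, with 6 of 11 tested called lower and 4 higher. Of all tested genes, 39.8% were called lower and 40.2% higher. Past both cutoffs, 1 of the 11 was lower and 3 were higher, where 10.1% of the tested genes were lower and 6.48% higher. On the adjusted p alone, with at least 10 CPM in 3 libraries 2 of 9 were called higher. By DESeq2 and without the second NP-G2-044 library, 4 were called lower. Gadd45a, a stress gene whose product can inhibit CDK1 with cyclin B, was at 59.9, 61.3 and 56.0 TPM with IL-1β and at 631, 659 and 641 TPM with NP-G2-044, which is 3.47 on the log2 scale with a standard error of 0.0377 (adjusted p = 5.25e-55, edgeR). Cdkn1a, which encodes the CDK inhibitor p21, rose from 0.680, 1.29 and 0.460 TPM to 2.45, 3.09 and 3.35 TPM, which is 1.90 on the log2 scale with a standard error of 0.244 (adjusted p = 1.52e-09, edgeR), and stayed at a low level throughout. RNA of its usual activator, Trp53, was at 52.5 ± 2.16 TPM (SD, n = 3) against 49.0 ± 2.83 TPM (SD, n = 3), which is -0.07 on the log2 scale (adjusted p = 0.179, edgeR). The activity of the Trp53 protein was not measured here. The kinases that place the inhibitory phosphates on CDK1 moved apart, Wee1 with -0.82 (adjusted p = 1.08e-19) and Pkmyt1 with 0.25 (adjusted p = 7.87e-05). Ccng2, a cyclin of arrested cells, was the lowest of the list with -1.43 (adjusted p = 6.61e-28). Rprm was too low to test.

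**Figure D5:**
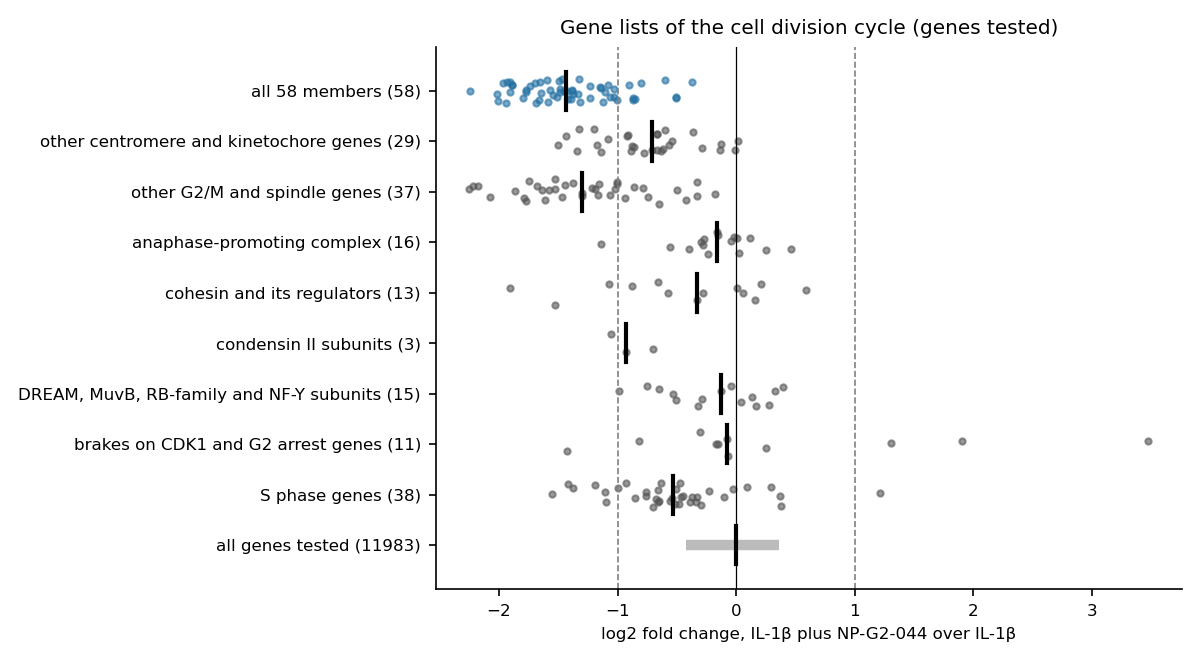
Log2 fold change in the NP-G2-044 group over the IL-1β group (horizontal axis) of each tested gene, for the 58 members (blue) and 8 lists of other genes (grey points, number tested in brackets), with black lines at the medians, dashed lines at -1 and 1 and, for all genes tested, a grey bar between the quartiles. The members and the other genes of G2 and mitosis have the lowest medians, -1.44 and -1.30, and Gadd45a stands alone at 3.47.

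The labelled cell type was checked against marker genes. Of 12 chondrocyte markers, 8 are listed (Acan, Col9a1, Col9a2 and Hapln1 are not), and Matn1 was at 0 in every library. Their summed level was 12.2 to 13.3 TPM with IL-1β and 15.7 to 16.3 TPM with NP-G2-044, most of it from Sox9 and Col11a2. These 2 went in opposite directions, Sox9 from a mean of 6.44 TPM to 11.4 TPM and Col11a2 from 5.01 TPM to 3.43 TPM. Of the 4 markers tested, 2 were called lower and 1 higher. Col2a1 was at 0.20 to 0.24 TPM and 0.02 to 0.06 TPM, so the defining cartilage collagen was nearly absent in both groups. Markers of hypertrophic chondrocytes and osteoblasts, 5 of 7 listed, summed to 23.4 to 25.9 TPM and 12.5 to 13.6 TPM. Most of this was Runx2, with means of 20.85 TPM and 12.39 TPM, while Col10a1 and Ihh were nearly absent in both groups. Of 8 leukocyte markers 6 are listed, with Ptprc at 0 in all libraries and a sum of 11.3 to 14.4 TPM against 124 to 135 TPM that was nearly all Cd68, a lysosomal protein also made outside macrophages. Endothelial markers summed to 0.05 to 0.28 TPM and 0.40 to 0.55 TPM and epithelial markers to 0.07 to 1.35 TPM and 0 to 0.08 TPM. The part of these shifts in the values of the members was not tested.

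The libraries held 16615824 to 16878164 estimated reads with IL-1β and 17529844 to 17735860 with NP-G2-044, and normalization factors lay between 0.9975 and 1.002. Squared differences between replicates were on average 1.54 to 2.39 times the variance expected from read sampling. Between libraries of different groups they were 133.1 to 135.8 times that variance. Each library was counted as 1 replicate because no pair differed by as little as sampling noise, which does not show that the cultures were separate. Exons of 16 members overlap another gene on the opposite strand and of 3 on the same strand, 13 members share at least 200 bases at 95% identity or more with another gene, and 11 had an estimated count that was not whole in at least 1 library. For these genes the count can include reads of another gene.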

How the data were processed

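RNA of 6 libraries was compared, 3 with IL-1β and 3 with IL-1β plus NP-G2-044, grouped by sample title. The authors deposited 1 table with an estimated count, TPM and FPKM per gene and library. The deposited estimated counts were made by the authors' quantification and are not normalized, and 10.17% to 11.06% of them per library are not whole. The deposited TPM and FPKM were scaled per library by the authors, and FPKM was not used. The submitters' processing notes list cutadapt, HISAT2 2.0, StringTie and mm10, with no role or order. Which tool counted, on which annotation and with or without strand, is not stated in the sources used here.

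After rounding to whole numbers, genes were kept by filterByExpr (minimum count 10), scaled by TMM and tested in edgeR 4.0.16 (R 4.3.3) by the quasi-likelihood test with robust estimation and no covariate. Benjamini-Hochberg adjustment ran over 11983 genes. A call past both cutoffs needed a log2 fold change above 1 in size beside an adjusted p below 0.05. A standard error is the log2 fold change over the square root of F. On simulated counts for this comparison, 195 of 199 changed genes among 11922 were recovered (98%), with 12 false calls. Every gene was drawn there with the same dispersion, and the changes made were at least 1 in size on the log2 scale. Far more genes were called in the data, so these figures do not cover smaller changes or genes that vary more between libraries.

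The members and all lists were chosen with earlier results of these data known. Values per library are given for Mki67, Top2a, Ccna2, Ccnb1, Ccnb2, Cdk1, Foxm1 and Mybl2, for the members with the lowest and highest log2 fold change of each role and, of the other lists, values are given for the lowest and highest gene and for Cdkn1a, Wee1, Pkmyt1, Gadd45a and Trp53. Other genes with values, such as Cenpo, Cenpk and Col2a1, were named after their values were seen. Promoters came from RefSeq on GRCm38.p6, and overlaps between genes from GENCODE annotation of the same build. A planned search for degron letters in the proteins was not run.

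Alternatives were DESeq2 1.42.0, scaling by its size factors, scaling by library size, limma 3.58.1 on log2(TPM + 1) and log2(TPM + 0.1), no filter, at least 10 CPM in 3 libraries, the replicate number as a block, and each library left out in turn.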

Additional observations from a re-analysis of the deposited data

How the results depend on the processing

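In every alternative fitted, 58 of 58 members were called lower and 0 higher, 48 or 49 passed both cutoffs (the call was lost by Smc2 without a filter and without the third IL-1β or second NP-G2-044 library, and by Cdc25c with limma on log2(TPM + 1) and without the first NP-G2-044 library), and the members' median log2 fold change ran from -1.47 to -1.40. Leaving out 1 library at a time, 143 to 149 genes of the other lists were called, against 148. DESeq2 size factors and library size alone moved the median of all genes by -0.0053 and -0.0020, and the largest shift, -0.03, came with limma on log2(TPM + 0.1). Over all genes, 1211 were lower and 776 higher past both cutoffs, against 802 and 514 with limma on log2(TPM + 1) and 680 and 484 of 9447 with at least 10 CPM in 3 libraries, which left 9 brakes on CDK1 with 2 higher. Haus1 was not called by DESeq2 (adjusted p = 0.0863). No pairing by replicate number was seen: deviations of same-numbered libraries correlated at -0.09, -0.02 and 0.03, and those of differently numbered ones at -0.107 to 0.129. These values do not show whether the libraries were paired by design. With the number as a replicate block 58 members were lower, 49 passed both cutoffs, the median was -1.44 and 147 genes of the other lists were called. Members had at least 104 reads each per library, whereas Cdkn1a and Rprm were near or under the limit of testing.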
